A study of Rattus norvegicus with 18 samples.

Results

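The glucocorticoid receptor gene Nr3c1, the cortisone reductase gene Hsd11b1 and 7 classical target genes of the receptor were followed in cultured rat bone marrow cells. These 9 genes were taken by their names from gene tables that hold 32623 genes each. They and the gene lists used below were chosen with earlier results of these data known. Each gene name stood on a single line of both tables. The targets were Fkbp5, Tsc22d3, Zbtb16, Sgk1, Dusp1, Klf9 and Errfi1.

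RNA was sequenced from bone marrow mesenchymal stem cells (MSCs) of 2-month-old SD (Sprague-Dawley) rats, either wild type (WT) or miR-337-/- (KO), at passage 3 after serum starvation for 8 h. Cells of each genotype were then kept without serum (SSt), given fetal bovine serum (FBS) or exposed to 10% cyclic mechanical stretch (CMS), which gave 6 groups of 3 libraries. The labels give 24 h for the treatments, while the methods of the study give a shorter time. No glucocorticoid was named among the treatments. The KO rats were made by a commercial provider, and how the deletion was made, whether rats were pooled and how many rats or cultures stand behind the 3 libraries of a group are not stated. The p-values below therefore measure the spread between these libraries, and the genotype cannot be told apart from the rats, the culture or the table of each genotype.

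The glucocorticoid receptor is a nuclear receptor that waits in the cytoplasm in a complex with Hsp90 and immunophilins until cortisol or corticosterone binds it. It then moves to the nucleus and raises or lowers genes, either on its own DNA elements or by binding to other factors such as AP-1 and NF-kB. Cells set their own exposure through Hsd11b1, which turns inactive 11-keto steroids into the active hormone, and glucocorticoids are used in culture to drive bone marrow stromal cells towards bone and fat.

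The microRNA that the KO rats lack has 2 mature arms in RefSeq (rat build GRCr8, chromosome 6, plus strand), shown here because its absence is the labelled difference between the genotypes, with the seed (bases 2 to 8) in capitals. The arms lie at chr6:134321170-134321190 and chr6:134321201-134321223.
rno-miR-337-5p: cGGCGUCAugcaggaguugau
rno-miR-337-3p: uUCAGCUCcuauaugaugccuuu
The line of the gene tables named for this microRNA had 0 counts over all 18 libraries in both genotypes, so these libraries give no check of the deletion.

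RefSeq promoter windows (build GRCr8, 250 bases before to 50 after a transcription start) were matched by symbol for 7 of the 9 genes, with 12 windows in all. Motifs were searched on both strands. A full receptor element, written as GNACANNNTGTNC, stood in 0 of the 12 windows and in 0.439% of all 33469 promoter windows. The single receptor site AGAACA stood in 0 of the 12 windows and in 20.7% of all windows. A cAMP response element (TGACGTCA, 1.83% of all windows) and an E-box (CACGTG, 6.42%) stood in the Dusp1 window, which is shown because Dusp1 had the largest fold change over SSt of the 8 tested genes in WT, with both matches in capitals. The matches began at positions -124 and -107 relative to the start and did not overlap. An AP-1 motif (TGANTCA, 7.33% of all windows) stood in 1 of the 3 Sgk1 windows and in the Klf9 window, and these are shown as the only other windows of the 9 genes with a match. The match began at position 25 after the start in the Sgk1 window and at position -122 in the Klf9 window. A match describes letters and not a bound site, and no match says only that these letters are not in the window.
Dusp1, chr10:17184603-17184902, plus strand: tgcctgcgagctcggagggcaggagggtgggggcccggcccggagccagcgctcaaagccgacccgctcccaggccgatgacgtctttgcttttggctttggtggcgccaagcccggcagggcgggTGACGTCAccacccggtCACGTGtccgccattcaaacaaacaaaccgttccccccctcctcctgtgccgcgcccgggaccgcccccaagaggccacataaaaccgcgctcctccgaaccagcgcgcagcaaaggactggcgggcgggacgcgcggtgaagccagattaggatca
Sgk1, chr1:24805521-24805820, minus strand: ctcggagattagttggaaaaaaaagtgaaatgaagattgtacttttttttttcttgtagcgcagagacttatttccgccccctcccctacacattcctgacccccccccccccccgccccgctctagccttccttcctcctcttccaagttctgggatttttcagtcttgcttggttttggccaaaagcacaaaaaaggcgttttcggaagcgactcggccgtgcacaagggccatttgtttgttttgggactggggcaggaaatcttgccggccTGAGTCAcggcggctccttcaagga
Klf9, chr1:230126396-230126695, plus strand: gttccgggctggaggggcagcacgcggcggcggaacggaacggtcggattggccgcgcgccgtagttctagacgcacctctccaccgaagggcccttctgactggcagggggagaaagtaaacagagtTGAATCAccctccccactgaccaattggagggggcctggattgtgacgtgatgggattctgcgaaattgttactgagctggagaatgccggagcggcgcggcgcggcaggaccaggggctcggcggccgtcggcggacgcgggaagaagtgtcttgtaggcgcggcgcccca
The windows of Nr3c1, Fkbp5, Tsc22d3 and Errfi1 held none of the 5 motifs.

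Library totals ran from 56.1 to 71.8 M counts, and no pair of libraries was identical. Genes with at least 1 FPKM (read fragments scaled to transcript length and library size) in at least 3 libraries of a fit were tested with edgeR, which left 12916 genes in WT, 12888 in KO and 13317 over both genotypes. A change was called at an adjusted p under 0.05. Zbtb16 did not pass this filter, so 8 of the 9 genes were tested in every comparison. Lepr, the receptor by which the study names these cells, had a mean under 1 FPKM in all 6 groups, while the other 10 of 11 MSC markers (Thy1, Pdgfrb, Col1a1 and others) were above it. The study reports nearly all cultured MSCs as LepR-positive by flow cytometry, at another passage, which measures protein and not RNA. The 11 macrophage markers all had a mean above 1 FPKM in every group. Their summed level was 4130 to 4263 FPKM in WT SSt, 7171 to 7531 in WT FBS and 6925 to 7283 in WT CMS. It was 2664 to 2772 FPKM in KO SSt, 4870 to 5946 in KO FBS and 4664 to 5065 in KO CMS. The 7 adipocyte markers summed to 25.0 to 31.5 FPKM in WT SSt and 689 to 873 FPKM in WT FBS and CMS, with Fabp4 giving 81.2% of the WT FBS mean and the defining markers Adipoq, Plin1 and Cidec under 1 FPKM in all groups. The 8 markers of dividing cells were highest in SSt in both genotypes, at 279 to 289 FPKM in WT and 453 to 498 FPKM in KO, and lower in FBS and CMS, at 171 to 187 FPKM in WT and 79.5 to 158 FPKM in KO. Serum starvation commonly holds cells out of division, so this order runs against the labels, and it touches every value set over SSt. Its cause was not tested. Replicate 1 of KO FBS stood apart from the other libraries of its group, with an adipocyte marker sum of 62.1 FPKM against 282 and 322 FPKM. Values that rest on it are therefore given without it as well, for the lists by leaving out each library in turn, a step chosen after seeing the data. In bulk RNA, fewer cells of a type and less RNA per cell cannot be told apart.

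Across all genes, treatment moved most of the transcriptome, and the counts of the 9 genes are to be read against that. In WT, FBS over SSt raised 33.7% and lowered 32.7% of tested genes, and 16.1% passed with a fold of at least 2. Of the 8 tested genes of the receptor set, 3 were higher (Tsc22d3, Sgk1, Hsd11b1) and 4 lower (Dusp1, Errfi1, Nr3c1, Fkbp5), and 3 changed by at least 2-fold. CMS over SSt in WT raised 34.6% and lowered 32.3% of all genes, with 16.7% past the fold limit. There 2 of the 8 were higher (Tsc22d3, Sgk1), 4 were lower (Dusp1, Errfi1, Nr3c1, Fkbp5) and 3 changed by at least 2-fold.

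In KO, FBS over SSt raised 30.3% and lowered 29.5% of genes, with 17.1% past the fold limit. CMS over SSt raised 30.8% and lowered 30.7% there, with 19.2% past the fold limit. In each of them 4 of the 8 were higher (Hsd11b1, Sgk1, Tsc22d3, Klf9) and 3 lower (Errfi1, Dusp1, Fkbp5), and 4 changed by at least 2-fold. FBS and CMS were compared with the same SSt libraries, so their values are set side by side and give no independent support to each other.

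**Figure D1:**
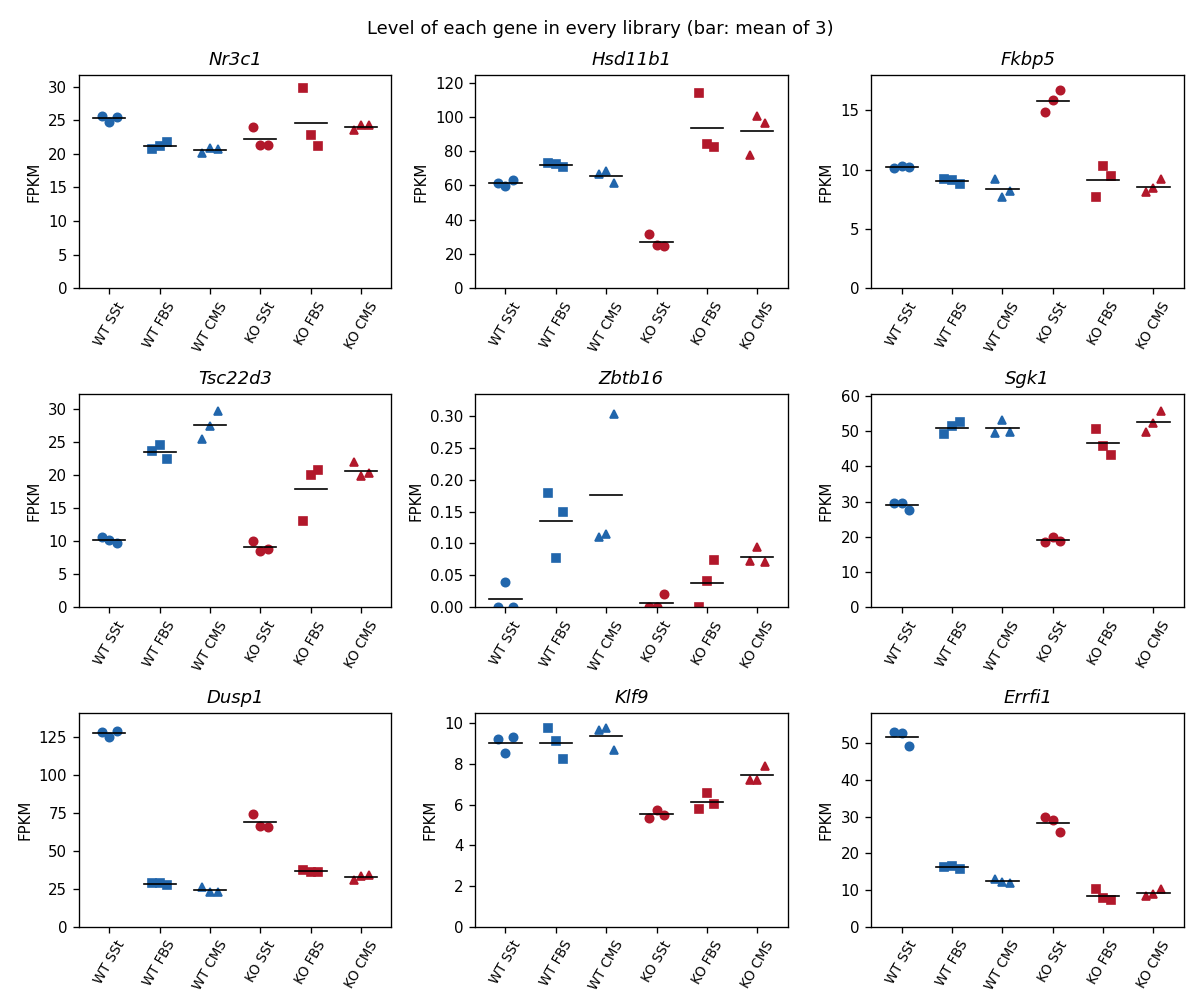
FPKM of each of the 9 genes (y axes, from 0, with a scale of their own) in every library of the 6 groups (x axis), where points are libraries, blue is WT, red is KO and the black bar is the mean of 3. Dusp1 and Errfi1 were highest in WT SSt, Hsd11b1 was lowest in KO SSt, and Zbtb16 reached at most 0.303 FPKM.

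Nr3c1, the receptor itself, was expressed in every library within a narrow range. Its level in WT SSt was 25.7, 24.7 and 25.5 FPKM. In WT FBS it was 20.8, 21.1 and 21.8 FPKM, and in WT CMS 20.2, 20.9 and 20.8 FPKM. Every WT FBS and CMS library was below every WT SSt library. The decrease was small, with a log2 fold change of -0.29 ± 0.033 (SE) for FBS (edgeR, adjusted p = 2.52e-05) and -0.32 ± 0.033 for CMS (adjusted p = 1.18e-05). KO libraries did not repeat this fall. Their level was 24.1, 21.3 and 21.3 FPKM in SSt, 29.8, 22.8 and 21.2 FPKM in FBS, and 23.5, 24.4 and 24.4 FPKM in CMS. The log2 fold changes in KO were 0.21 ± 0.13 for FBS (adjusted p = 0.191) and 0.23 ± 0.13 for CMS (adjusted p = 0.160), and neither passed. Without replicate 1 of KO FBS, whose Nr3c1 level was the highest of all 18 libraries, the KO value was 0.03 for FBS (adjusted p = 0.772). The CMS value, 0.23, passed without that library (adjusted p = 0.0100) and with only the groups compared (adjusted p = 0.00908). In order of mean level, the groups were WT SSt, KO FBS, KO CMS, KO SSt, WT FBS and WT CMS, and each overlapped its neighbour.

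Hsd11b1, the enzyme that regenerates active glucocorticoid inside the cell, showed the widest genotype difference of the 8 tested genes in SSt and CMS. Within FBS that of Errfi1 was wider, while Hsd11b1 had the widest difference in the response to each treatment. WT libraries held 61.3, 59.9 and 63.4 FPKM of Hsd11b1 in SSt. Their level was 72.9, 72.3 and 70.8 FPKM in FBS and 66.8, 68.5 and 61.7 FPKM in CMS. KO libraries started far lower, at 31.6, 25.3 and 24.9 FPKM in SSt, and were higher than all WT libraries in both treatments. KO FBS held 114, 84.4 and 82.3 FPKM, and KO CMS held 77.6, 100.5 and 96.7 FPKM. The increase in KO was 3.59-fold for FBS (log2 1.84 ± 0.17, adjusted p = 2.90e-05) and 3.63-fold for CMS (log2 1.86 ± 0.17, adjusted p = 2.12e-05). In WT it was 0.19 ± 0.040 on the log2 scale for FBS (adjusted p = 0.00199), a call that was lost with all 18 libraries in one fit (adjusted p = 0.211). For CMS it was 0.07 ± 0.040 (adjusted p = 0.164), and it passed without replicate 3 of WT CMS (0.11, adjusted p = 0.0176) and with upper-quartile scaling (0.12, adjusted p = 0.0179). Without replicate 1 of KO FBS, the KO increase in FBS was 1.65 on the log2 scale (adjusted p = 1.24e-05). Hsd11b2, the gene of the enzyme that inactivates the hormone, had a mean under 1 FPKM in all 6 groups. H6pd, which supplies the cofactor of Hsd11b1 in the endoplasmic reticulum, had a log2 fold change of -0.40 in WT FBS (adjusted p = 1.38e-05) and -0.00 in KO FBS (adjusted p = 0.984). Hsd11b2 and H6pd were chosen for their role, outside the rule for named genes.

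Fkbp5 encodes the immunophilin FKBP51, which is induced by the receptor and holds it back in the Hsp90 complex. It was lower in FBS and CMS than in SSt in both genotypes. In WT SSt it was 10.1, 10.3 and 10.3 FPKM, against 9.24, 9.14 and 8.75 FPKM in FBS and 9.22, 7.69 and 8.17 FPKM in CMS. KO SSt held the highest level, with 14.9, 15.9 and 16.7 FPKM, above every other library. KO FBS held 7.72, 10.3 and 9.47 FPKM and KO CMS 8.10, 8.43 and 9.17 FPKM, and the treated libraries of both genotypes overlapped. The log2 fold changes were -0.21 ± 0.063 (adjusted p = 0.0143) and -0.31 ± 0.064 (adjusted p = 0.00152) in WT for FBS and CMS. In KO they were -0.73 ± 0.096 (adjusted p = 0.000198) and -0.77 ± 0.096 (adjusted p = 0.000124). The WT FBS call was lost without replicate 3 of WT FBS (adjusted p = 0.0512) and with upper-quartile scaling (adjusted p = 0.0550). The KO value for FBS was -0.64 without replicate 1 of KO FBS (adjusted p = 0.000165).

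Tsc22d3 encodes GILZ, a leucine zipper protein that mediates anti-inflammatory effects of glucocorticoids. It rose in both genotypes and under both treatments. WT SSt libraries held 10.6, 10.1 and 9.74 FPKM and KO SSt libraries 9.98, 8.50 and 8.86 FPKM. FBS brought the level to 23.6, 24.5 and 22.4 FPKM in WT and 13.0, 19.99 and 20.7 FPKM in KO, and CMS brought it to 25.4, 27.5 and 29.6 FPKM in WT and 21.9, 19.8 and 20.3 FPKM in KO. No treated library overlapped with an SSt library. The increase was 2.26-fold for FBS (adjusted p = 1.10e-07) and 2.66-fold for CMS (adjusted p = 2.88e-08) in WT. In KO it was 2.04-fold (adjusted p = 0.000360) and 2.45-fold (adjusted p = 8.30e-05). Replicate 1 of KO FBS had the lowest level of the treated libraries, and without it the KO log2 fold change in FBS was 1.2 (adjusted p = 4.36e-06).

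Sgk1 encodes a kinase that glucocorticoids, mineralocorticoids and serum all induce and that controls sodium channels and survival. It rose under both treatments in both genotypes, from a lower level in KO SSt. WT SSt held 29.6, 29.7 and 27.8 FPKM and KO SSt 18.5, 19.9 and 18.9 FPKM. FBS libraries held 49.1, 51.4 and 52.5 FPKM in WT and 50.8, 45.8 and 43.4 FPKM in KO. CMS libraries held 49.4, 53.2 and 49.9 FPKM in WT and 49.8, 52.5 and 55.8 FPKM in KO. The 12 treated libraries lay between 43.4 and 55.8 FPKM whatever their genotype, all above the SSt libraries. WT rose 1.72-fold in both FBS (adjusted p = 1.04e-07) and CMS (adjusted p = 9.59e-08), and KO rose 2.55-fold in FBS (adjusted p = 2.09e-06) and 2.98-fold in CMS (adjusted p = 6.97e-07). The KO log2 fold change in FBS went from 1.35 to 1.26 without replicate 1 of KO FBS (adjusted p = 6.89e-07).

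Levels of Sgk1 ran close to those of some macrophage markers. The 3 genes whose pattern over the 18 libraries was most like that of Sgk1 were Cstb (Pearson r = 0.994), Cd68 (r = 0.992) and Hk3 (r = 0.990), of which Cd68 is itself a macrophage marker. The median of the summed macrophage markers was 4228 FPKM in WT SSt and 7412 FPKM in WT FBS, and 2738 FPKM in KO SSt and 5935 FPKM in KO FBS. Lyz2 made up most of that sum, with means of 2299 and 4987 FPKM in WT SSt and FBS. The 11 markers did not move as one, with 8 higher and 2 lower in WT FBS, 7 and 3 in WT CMS, 8 and 1 in KO FBS, and 7 and 3 in KO CMS. Of all genes, 33.7% were higher and 32.7% lower in WT FBS, and 34.6% and 32.3% in WT CMS. In KO these shares were 30.3% and 29.5% in FBS, and 30.8% and 30.7% in CMS. Cd14 fell in WT from 558 to 213 FPKM in FBS (log2 fold change -1.43, adjusted p = 7.96e-08) and to 164 FPKM in CMS. In KO CMS the means of Csf1r (109 to 47.8 FPKM), C1qa (45.7 to 3.67 FPKM) and Cd74 (299 to 124 FPKM) fell. Those of Adgre1 (2.97 to 67.4 FPKM), Itgam (26.6 to 59.6 FPKM) and Cd68 (141 to 509 FPKM) rose, and 7 of the 11 markers were higher there. These genes were named after their values were seen. The part of these cells in the changes of Sgk1, Hsd11b1 and Tsc22d3 was not tested.

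**Figure D2:**
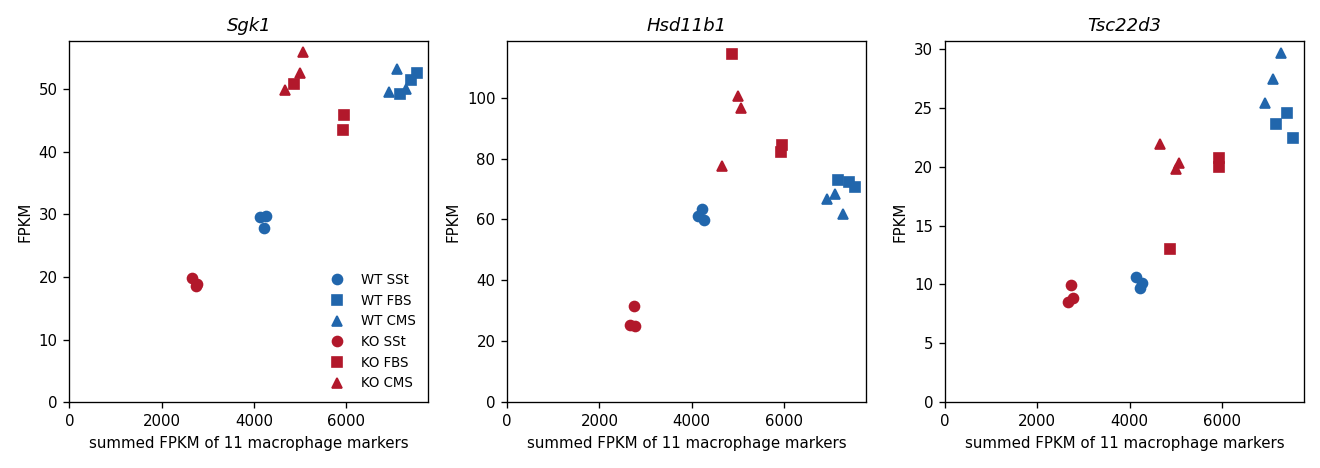
FPKM of Sgk1, Hsd11b1 and Tsc22d3 (y axes) against the summed FPKM of 11 macrophage markers (x axis), 1 point per library, with colour for genotype and shape for treatment. KO SSt libraries have the lowest marker sums, 2664 to 2772 FPKM, and the lowest Sgk1 and Hsd11b1, while for Tsc22d3 they overlap with WT SSt, and the treated libraries of both genotypes lie at 4664 FPKM or more.

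Dusp1 encodes a phosphatase that shuts off p38, JNK and ERK and is raised both by glucocorticoids and within minutes by stress and growth factors. It fell more than any other of the 8 tested genes in WT. The 3 WT SSt libraries held 128, 125 and 129 FPKM. WT FBS held 28.5, 28.7 and 27.6 FPKM, and WT CMS held 25.8, 22.7 and 23.1 FPKM. In KO SSt the level was 74.0, 66.5 and 65.8 FPKM, below all WT SSt libraries. KO FBS held 37.2, 36.3 and 35.8 FPKM, and KO CMS held 30.6, 33.4 and 33.7 FPKM, all above the treated WT libraries. None of the 6 groups overlapped with another, so the order WT SSt, KO SSt, KO FBS, KO CMS, WT FBS and WT CMS held library by library. Dusp1 was 4.62-fold lower in WT FBS (adjusted p = 3.27e-10) and 5.44-fold lower in WT CMS (adjusted p = 1.77e-10) than in WT SSt. In KO it was 1.81-fold lower in FBS (adjusted p = 1.13e-05) and 1.96-fold lower in CMS (adjusted p = 4.23e-06), with a log2 value for FBS of -0.89 without replicate 1 of KO FBS (adjusted p = 1.57e-05).

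Errfi1 encodes MIG6, an inhibitor of the EGF receptor that is raised by glucocorticoids as well as by growth factors. It also fell under both treatments. Its level was 53.1, 52.8 and 49.1 FPKM in WT SSt and 29.9, 29.1 and 25.7 FPKM in KO SSt. After FBS it was 16.3, 16.6 and 15.6 FPKM in WT and 10.1, 7.84 and 7.19 FPKM in KO, and after CMS it was 12.9, 12.2 and 12.0 FPKM in WT and 8.39, 8.89 and 10.3 FPKM in KO. All 12 treated libraries were below all 6 SSt libraries, and all KO libraries of a treatment were below the WT libraries of that treatment. The gene was 3.28-fold (adjusted p = 8.45e-10) and 4.25-fold (adjusted p = 2.53e-10) lower in WT FBS and CMS than in SSt. In KO it was 3.22-fold (adjusted p = 2.01e-05) and 2.85-fold (adjusted p = 2.92e-05) lower, with a log2 value for FBS of -1.87 without replicate 1 of KO FBS (adjusted p = 2.36e-06).

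Klf9, a zinc finger transcription factor that the receptor induces, was lower in every KO library than in every WT library. WT levels were 9.22, 8.53 and 9.32 FPKM in SSt, 9.77, 9.15 and 8.23 FPKM in FBS and 9.68, 9.75 and 8.70 FPKM in CMS. The 3 WT groups overlapped, and neither the log2 fold change for FBS (-0.03 ± 0.075, adjusted p = 0.734) nor that for CMS (0.03 ± 0.075, adjusted p = 0.744) passed. KO levels were 5.34, 5.73 and 5.49 FPKM in SSt, 5.80, 6.55 and 6.05 FPKM in FBS and 7.19, 7.19 and 7.91 FPKM in CMS. The KO groups did not overlap with each other. CMS raised Klf9 in KO by 0.54 ± 0.072 on the log2 scale (adjusted p = 0.000197). The FBS value in KO, 0.21 ± 0.072 (adjusted p = 0.0311), did not pass without replicate 1 or 3 of KO SSt or replicate 2 of KO FBS (adjusted p = 0.0805 to 0.0960). It also failed under 8 of the settings that kept all libraries (adjusted p = 0.0516 to 0.133), and it was 0.23 without replicate 1 of KO FBS (adjusted p = 0.0355).

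Zbtb16 encodes PLZF, a transcription factor that glucocorticoids raise strongly in stromal cells. It was at the limit of detection. WT counts were 0, 8 and 0 in SSt, 30, 15 and 24 in FBS and 19, 19 and 51 in CMS. KO counts were 0, 0 and 4 in SSt, 0, 8 and 12 in FBS and 12, 15 and 14 in CMS, and the highest group mean was 0.176 FPKM. Each treated WT library had more counts than the WT SSt libraries. With no filter on low values the WT log2 fold changes were 3.17 ± 1.1 for FBS (adjusted p = 0.0380) and 3.57 ± 1.1 for CMS (adjusted p = 0.0227), while those in KO did not pass (adjusted p = 0.277 and 0.12). At such counts these fold changes depend on the prior count of the fit.

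**Figure D3:**
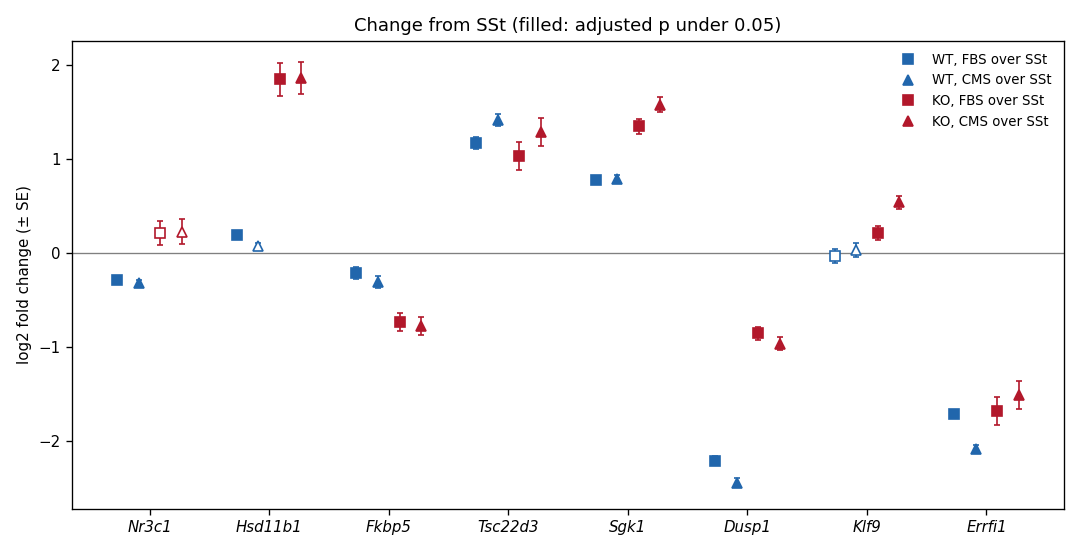
Log2 fold change over SSt (y axis, ± SE) of the 8 tested genes (x axis) in FBS (squares) and CMS (triangles), with WT in blue, KO in red and filled symbols for an adjusted p under 0.05. Dusp1 stands at -2.21 and -2.44 in WT and nearer 0 in KO, Hsd11b1 stands near 0 in WT and at 1.84 and 1.86 in KO, and Tsc22d3 is above 1 in all 4 comparisons.

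Stretch and serum were compared directly to ask which genes set them apart. In WT, 3.91% of genes were higher and 5.03% lower in CMS than in FBS, with 0.217% past the fold limit. Errfi1 (log2 fold change -0.38 ± 0.045, adjusted p = 0.00148) and Dusp1 (-0.23 ± 0.048, adjusted p = 0.0180) were lower and Tsc22d3 was higher (0.24 ± 0.062, adjusted p = 0.0453). The Dusp1 call was lost without replicate 1 or 2 of WT FBS or replicate 2 or 3 of WT CMS (adjusted p = 0.0570 to 0.0656). That of Tsc22d3 was lost when any 1 of 8 libraries was left out, all but replicate 1 of WT CMS (adjusted p = 0.0535 to 0.140), and under 10 of the other settings tried. That of Errfi1 was lost with all 18 libraries in one fit (adjusted p = 0.0910). In KO, 6.73% of genes were higher and 8.09% lower in CMS than in FBS, with 2.61% past the fold limit. Klf9 was the 1 gene of the 8 that passed (0.33 ± 0.072, adjusted p = 0.0185), and it did not pass without replicate 3 of KO FBS (adjusted p = 0.0627) or replicate 3 of KO CMS (adjusted p = 0.0768). Nor did it pass with only the groups compared (adjusted p = 0.0571). Without replicate 1 of KO FBS, Sgk1 (0.31, adjusted p = 0.00722) and Errfi1 (0.36, adjusted p = 0.0404) passed as well, and Sgk1 also passed with all 18 libraries in one fit (0.22, adjusted p = 0.0242). None of the 8 genes differed by 2-fold between CMS and FBS in either genotype.

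Whether the response to a treatment differed between the genotypes was tested as an interaction, the WT log2 fold change minus that of KO, over all 18 libraries. For FBS, the difference was above 0 in 17.2% and below 0 in 18.5% of all genes, with 8.97% past the fold limit. Of the 8 genes, 1 was above 0 and 4 were below it, and 2 passed the fold limit. For CMS, 23.2% of all genes were above and 21.6% below 0, with 13.4% past the fold limit, against 1 and 6 of the 8 genes, 2 of them past the fold limit.

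Hsd11b1 had the widest such difference, -1.67 ± 0.18 for FBS (adjusted p = 1.25e-05) and -1.80 ± 0.18 for CMS (adjusted p = 3.08e-06), the increase being the larger in KO. Dusp1 followed with -1.36 ± 0.083 (adjusted p = 9.82e-08) and -1.48 ± 0.083 (adjusted p = 2.31e-08), its fall being deeper in WT. Sgk1 rose less in WT, by -0.58 ± 0.092 (adjusted p = 0.000218) and -0.79 ± 0.092 (adjusted p = 8.36e-06). Nr3c1 differed by -0.51 ± 0.14 (adjusted p = 0.0103) and -0.55 ± 0.14 (adjusted p = 0.00480), and without replicate 1 of KO FBS the FBS value was -0.33 (adjusted p = 0.00222). Fkbp5 was the only one called above 0, at 0.51 ± 0.12 (adjusted p = 0.00388) and 0.46 ± 0.12 (adjusted p = 0.00562), since it fell more in KO. For Errfi1 and Klf9 the difference passed for CMS alone, at -0.58 ± 0.16 (adjusted p = 0.00744) and -0.51 ± 0.10 (adjusted p = 0.000792), while the FBS values were -0.04 ± 0.16 (adjusted p = 0.881) and -0.25 ± 0.10 (adjusted p = 0.0647). The Klf9 value for FBS passed without replicate 1 of WT FBS (-0.31, adjusted p = 0.0305). For Tsc22d3 no difference was detected, with 0.13 ± 0.17 (adjusted p = 0.590) and 0.12 ± 0.17 (adjusted p = 0.616). Each of these FBS calls kept its side of the threshold without replicate 1 of KO FBS. The values were then -1.47 for Hsd11b1, -1.33 for Dusp1, -0.49 for Sgk1 and 0.42 for Fkbp5, all past it. Those of Klf9 (-0.27), Errfi1 (0.15) and Tsc22d3 (-0.04) did not pass.

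The genotypes were then compared within each treatment. In SSt, 24.2% of all genes were higher and 23.2% lower in KO than in WT, with 7.32% past the fold limit. Of the 8 genes, 6 were lower in KO (Hsd11b1, Dusp1, Errfi1, Klf9, Sgk1, Nr3c1) and Fkbp5 was higher. Hsd11b1 was 2.38-fold lower (adjusted p = 2.42e-06), Dusp1 1.95-fold (adjusted p = 1.06e-08), Errfi1 1.93-fold (adjusted p = 7.71e-06), Klf9 1.72-fold (adjusted p = 6.96e-07) and Sgk1 1.60-fold (adjusted p = 1.14e-06). Fkbp5 was 1.47-fold higher (adjusted p = 7.23e-05). The Nr3c1 value was -0.26 ± 0.099 on the log2 scale (adjusted p = 0.0403), and it was lost without any 1 of the 3 WT SSt libraries or replicate 2 or 3 of KO SSt (adjusted p = 0.0631 to 0.12), and under 6 of the settings that kept all libraries (adjusted p = 0.0687 to 0.0947). Tsc22d3 did not pass (-0.23 ± 0.12, adjusted p = 0.130). It passed at the same log2 value (-0.23, adjusted p = 0.0126) without replicate 1 of KO FBS. The Nr3c1 call was kept in that fit (-0.26, adjusted p = 0.000255). That library is in neither group compared and enters only through the shared fit. The KO SSt libraries also had the lowest macrophage marker sums of the 6 groups and the highest levels of dividing-cell markers, whose part in these values was not tested.

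In FBS the genotypes lay closer. Of all genes, 13.5% were higher and 12.3% lower in KO, with 4.02% past the fold limit, and 2 of the 8 were higher and 3 lower, none by 2-fold. Dusp1 was 1.32-fold higher in KO (adjusted p = 0.000153), against its lower level there in SSt. Errfi1 was 1.88-fold lower (adjusted p = 3.78e-05) and Klf9 1.44-fold lower (adjusted p = 8.60e-05). Hsd11b1 was higher by 0.42 ± 0.13 on the log2 scale (adjusted p = 0.0275) and Tsc22d3 lower by -0.36 ± 0.12 (adjusted p = 0.0362). Both calls were lost without replicate 1 of KO FBS, when Hsd11b1 stood at 0.22 (adjusted p = 0.151) and Tsc22d3 at -0.19 (adjusted p = 0.0891). Each was also lost without any 1 WT FBS library (adjusted p = 0.0550 to 0.105). A replicate block lost both as well (adjusted p = 0.0577 for Hsd11b1 and 0.0793 for Tsc22d3). Without replicate 1 of KO FBS, Sgk1 passed (-0.18, adjusted p = 0.0277). Nr3c1 (adjusted p = 0.0796 with all libraries) passed without replicate 2 (adjusted p = 0.0476) or replicate 3 (adjusted p = 0.0102) of KO FBS, while without replicate 1 its log2 value went from 0.25 to 0.06 (adjusted p = 0.449). Without that library the calls of Dusp1 (0.36), Errfi1 (-1.09) and Klf9 (-0.51) were kept.

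In CMS, 18.7% of all genes were higher and 21.0% lower in KO, with 8.31% past the fold limit, and 3 of the 8 were higher and 3 lower, again none by 2-fold. Dusp1 was 1.43-fold higher (adjusted p = 8.32e-06) and Hsd11b1 1.46-fold higher (adjusted p = 0.00355). Klf9 was 1.21-fold lower (adjusted p = 0.00765). Nr3c1 (0.29 ± 0.099, adjusted p = 0.0309), Tsc22d3 (-0.35 ± 0.12, adjusted p = 0.0304) and Errfi1 (-0.36 ± 0.11, adjusted p = 0.0187) passed with all libraries. Nr3c1 was lost without any 1 WT CMS library or replicate 2 or 3 of KO CMS (adjusted p = 0.0598 to 0.0838), and under 4 of the settings that kept all libraries (adjusted p = 0.0627 to 0.0667). Tsc22d3 was lost without replicate 2 or 3 of either genotype (adjusted p = 0.0661 to 0.111), and Errfi1 without replicate 1 of WT CMS or replicate 1 or 2 of KO CMS (adjusted p = 0.0612 to 0.0772). With all libraries kept, Tsc22d3 was also lost with a replicate block (adjusted p = 0.0701) and with no filter on low values (adjusted p = 0.0541). Nr3c1 (0.29, adjusted p = 0.000124) and Tsc22d3 (-0.34, adjusted p = 0.000898) kept their calls with replicate 1 of KO FBS left out. So did Errfi1 (-0.36, adjusted p = 0.00113). That library is in neither group compared and enters only through the shared fit.

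**Figure D4:**
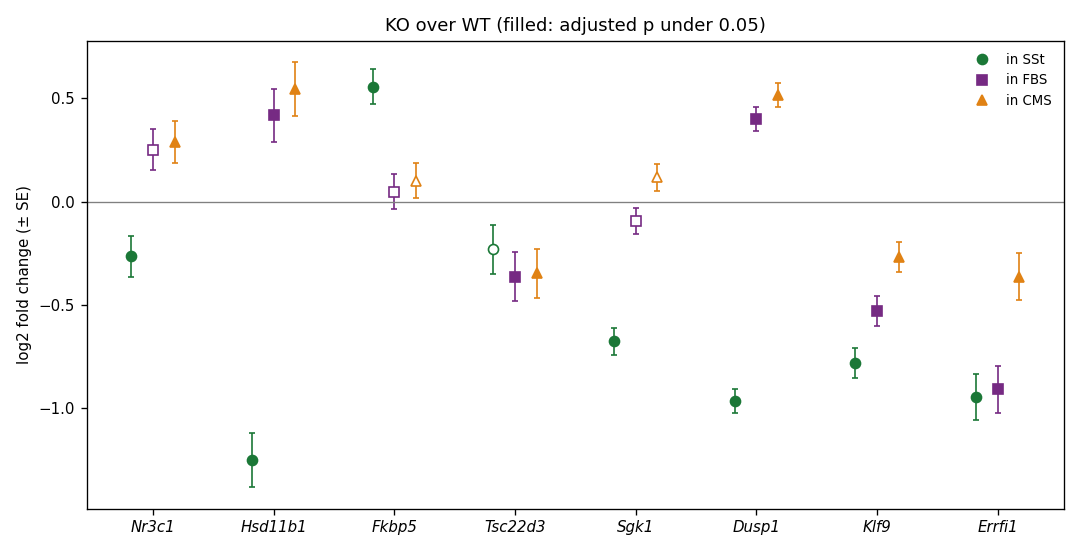
Log2 fold change of KO over WT (y axis, ± SE) of the 8 tested genes (x axis) in SSt (green), FBS (purple) and CMS (orange), with filled symbols for an adjusted p under 0.05. Hsd11b1 and Dusp1 lie below 0 in SSt, at -1.25 and -0.96, and above 0 in both treatments, while Klf9 and Errfi1 lie below 0 throughout.

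The chaperones, partners and enzymes that act on the receptor were followed as a list of 25 genes, of which 23 were found and 22 tested. The counts are read against all genes, of which 33.7% were higher and 32.7% lower in WT FBS, 34.6% and 32.3% in WT CMS, 30.3% and 29.5% in KO FBS, and 30.8% and 30.7% in KO CMS. In WT FBS 6 were higher and 12 lower, with a median log2 fold change of -0.16 beside 0.01 over all genes. In KO FBS 6 were higher and 11 lower, with a median of -0.17 beside 0.02, and 5 and 11 without replicate 1 of KO FBS. In CMS the counts were 6 and 9 in WT (median -0.01) and 8 and 9 in KO (median -0.02), beside medians of 0.02 and -0.00 over all genes. Hsp90ab1, the constitutive Hsp90 that keeps the receptor ready for hormone, was the most abundant, at a mean of 529 ± 9.60 (SD, n = 3) FPKM in WT SSt, 655 ± 6.55 in WT FBS and 763 ± 7.14 in WT CMS. Hspa8, a constitutive Hsp70, held 452 ± 5.57 FPKM in WT SSt and 394 ± 6.92 in WT FBS. The largest changes in WT FBS were those of Nr3c2, the mineralocorticoid receptor, which also binds glucocorticoids, and Ncoa3, a coactivator. Nr3c2 rose from 0.577 ± 0.17 to 2.38 ± 0.055 FPKM in WT (log2 fold change 2.00 ± 0.23, adjusted p = 3.18e-05) and stood at 1.31 ± 0.23 and 1.18 ± 0.12 FPKM in KO SSt and FBS (-0.09 ± 0.26, adjusted p = 0.794). The difference between the genotypes in that response was 2.07 ± 0.36 (adjusted p = 0.000422). In the WT fit Nr3c2 reached 1 FPKM in treated libraries alone, so it was tested there only through the groups where it was high. Ncoa3 rose in both genotypes, by 0.99 ± 0.044 in WT (adjusted p = 2.39e-08) and 0.58 ± 0.070 in KO (adjusted p = 0.000123).

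Other genes known to be raised by glucocorticoids formed a list of 32, with 24 tested in WT and 25 in KO. They did not move as 1 group. In WT 7 were higher and 12 lower in FBS and 7 and 13 in CMS, with medians of -0.35 and -0.31. In KO 11 were higher and 5 lower in FBS and 12 and 8 in CMS, with medians of 0.23 and 0.24, beside the shares of all genes given for the chaperones. The KO FBS counts were 12 and 6 and the median 0.29 without replicate 1 of KO FBS. The WT median thus lay below that of all genes (0.01 and 0.02) and the KO median above it (0.02 and -0.00). Mt2A, a metallothionein, fell from 616 ± 27.4 FPKM in WT SSt to 290 ± 10.9 in WT FBS (log2 fold change -1.12 ± 0.078, adjusted p = 7.18e-07) and did not pass in KO FBS (-0.17 ± 0.23, adjusted p = 0.535), where it passed without replicate 1 (-0.48, adjusted p = 0.0300). Anxa1, an annexin with anti-inflammatory activity, was at 395 ± 3.69 FPKM in WT SSt and 392 ± 9.14 in WT FBS and did not pass. Cdkn1c, an inhibitor of cyclin-dependent kinases, rose in WT (3.41 ± 0.43, adjusted p = 5.75e-05) and KO FBS (2.96 ± 0.62, adjusted p = 0.00299), from 0.0938 to 1.06 FPKM and from 0.132 to 1.02 FPKM. It reached the 1 FPKM of the filter in treated libraries alone, so it was tested only through the groups where it was high. Its p-values therefore give no independent support for the rise. Crispld2, a secreted protein, fell in WT (-3.25 ± 0.13, adjusted p = 1.15e-08) and KO FBS (-1.83 ± 0.28, adjusted p = 0.000479).

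Genes that glucocorticoids lower, mostly cytokines, chemokines and proteases, made a list of 20, of which 17 were tested in each fit. In WT most of them fell, while in KO the counts and the median in FBS rested on 1 library. In WT 2 were higher and 15 lower in FBS, all 15 by at least 2-fold, and 2 were higher and 14 lower in CMS, with median log2 fold changes of -3.99 and -4.28, beside 33.7% higher and 32.7% lower (median 0.01) and 34.6% and 32.3% (median 0.02) of all genes. In KO 8 were higher and 2 lower in both FBS and CMS, with medians of 1.34 and 1.62, beside 30.3% higher and 29.5% lower (median 0.02) and 30.8% and 30.7% (median -0.00) of all genes. Without replicate 1 of KO FBS, 5 were higher and 6 lower in KO FBS, with a median of 0.24, and 10 and 4 in KO CMS, with a median of 1.62. Without any 1 of the 3 KO SSt libraries 5 were higher and 2 lower in both treatments, and 5 were higher in KO CMS without its replicate 2 or 3. The summed level of the list was 2351, 3134 and 7007 FPKM in KO FBS and 3024, 5432 and 6111 FPKM in KO CMS. In KO SSt it was 3490 to 4038 FPKM, so both treated KO groups overlapped with KO SSt. The interaction was below 0 for 14 of the 17 in FBS and 15 of the 17 in CMS, beside 18.5% and 21.6% of all genes, with medians of -4.76 and -5.61 beside 0.01 and 0.05. In FBS it was 13 of the 17, with a median of -3.86, without replicate 1 of KO FBS. In SSt 15 of the 17 were lower in KO than in WT, with a median of -2.95, beside 23.2% of all genes and a median of 0.02. Several of these genes are also products of activated macrophages, and the summed macrophage markers differed between the same groups, with 2664 to 2772 FPKM in KO SSt and 4130 to 4263 FPKM in WT SSt. In WT the median sum was 4228 FPKM in SSt and 7412 FPKM in FBS, where 15 of the 17 genes were lower. Lyz2 made up most of that sum, which does not measure activation. The part of macrophages in the result was not tested.

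The most abundant of them were Ccl2, a monocyte chemokine, and Mmp3, a matrix protease. Ccl2 stood at 2375 ± 86.3 FPKM in WT SSt and 881 ± 38.5 in WT FBS (log2 fold change -1.47 ± 0.085, adjusted p = 1.88e-07), and at 2428 ± 102 and 1502 ± 479 in KO (-0.63 ± 0.25, adjusted p = 0.0570). The KO value passed without replicate 1 of KO FBS (-0.93, adjusted p = 0.00385) and without replicate 1 of KO CMS (-0.63, adjusted p = 0.0369). Mmp3 fell in WT from 3099 ± 117 to 781 ± 32.4 FPKM (-2.02 ± 0.12, adjusted p = 1.92e-07) and rose in KO from 220 ± 63.7 to 1376 ± 1080 FPKM (2.72 ± 0.59, adjusted p = 0.00349). The KO FBS libraries held 2608, 925 and 594 FPKM of Mmp3, and without the first the KO value was 1.83 (adjusted p = 0.00337). The widest falls in WT FBS were those of Il11 (-7.24 ± 0.27, adjusted p = 8.16e-09), from 81.3 ± 3.74 to 0.549 ± 0.12 FPKM, and Il1a (-6.97 ± 0.22, adjusted p = 2.59e-09), from 327 ± 28.8 to 2.66 ± 0.47 FPKM. Il11 reached 1 FPKM in the SSt libraries alone in WT, so it was tested there only through the group where it was high. Csf2 of the same list likewise had a mean under 1 FPKM in WT FBS and CMS. In KO SSt, Il11 and Il1a stood at 2.27 ± 0.71 and 44.4 ± 7.45 FPKM, and neither passed in KO FBS (adjusted p = 0.12 and 0.504). Both fell there without replicate 1 of KO FBS, with log2 fold changes of -1.79 (adjusted p = 0.00338) for Il11 and -2.54 (adjusted p = 0.00342) for Il1a. Il1a was at 62.5 FPKM in that library and at 9.49 and 5.28 FPKM in the other KO FBS libraries.

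**Figure D5:**
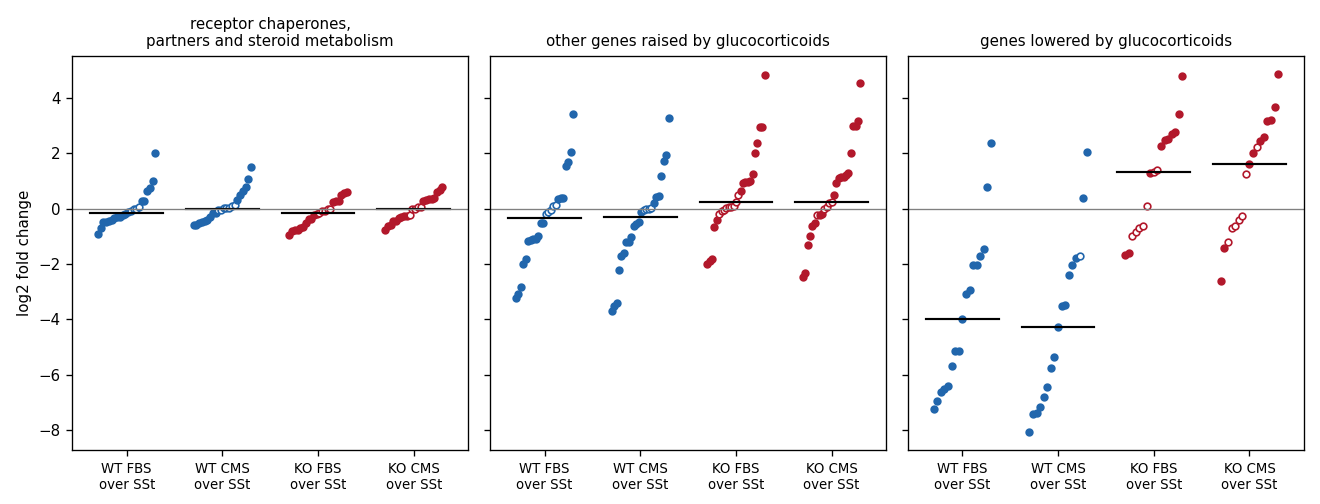
Log2 fold change over SSt (y axis) of the tested genes of 3 lists (panels) in the 4 comparisons with SSt (x axis), 1 point per gene sorted by value, filled for an adjusted p under 0.05, with a black bar at the median. The medians of the genes lowered by glucocorticoids are -3.99 and -4.28 in WT (blue) and 1.34 and 1.62 in KO (red), where the FBS median is 0.24 without replicate 1 of KO FBS.

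The genes most like each of the other tested members over the 18 libraries were found by the same Pearson correlation of log2(FPKM + 1), given as a description because the points share groups and libraries. For Dusp1 these were Dcbld2, Tll1 and Stc1 (r = 0.990, 0.989 and 0.988) and for Errfi1 Eea1, Spata18 and Col27a1 (r = 0.986, 0.984 and 0.981). Tsc22d3 was most like Fabp4, Atf3 and Rragd (r = 0.988, 0.984 and 0.984), and of these Fabp4 is the marker that made up most of the adipocyte sum. Hsd11b1 was most like C2, Prr13 and Pik3r5 (r = 0.981, 0.978 and 0.969), and Fkbp5 was most like Gstcd, Fh and Anp32b (r = 0.976, 0.970 and 0.966). The best matches of Klf9 were Cables1, Cux1 and Enpep (r = 0.937, 0.935 and 0.928), and those of Nr3c1 were Prxl2b, Chic2 and Depdc5 (r = 0.909, 0.903 and 0.897). Within the set, Fkbp5 ran opposite to Sgk1 (r = -0.916) and Hsd11b1 (r = -0.902), and Dusp1 ran with Errfi1 (r = 0.869) and opposite to Tsc22d3 (r = -0.896).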

How the data were processed

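The authors deposited one table per genotype, each with 32623 genes and 9 libraries, holding a read count per gene and an FPKM. The deposited counts are whole numbers without normalization. The authors made the FPKM by scaling the count to transcript length and library total, and 1e-04 is written where the count is 0. Bowtie 0.12.2 and mm10, a mouse build, are listed by the submitters' notes on processing, whereas the identifiers are those of rat Ensembl genes. No source used here gives the counting tool, and no coordinates of the tables were used.

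Counts were tested with edgeR 4.0.16 (TMM scaling, quasi-likelihood F test, R 4.3.3) and Benjamini-Hochberg adjustment over all tested genes. Each genotype was fitted with its 9 libraries, and interactions and KO over WT with all 18. The SE was derived from the F statistic. The fit was tested on simulated data. Intervals were not computed for the fold changes, and depth (56.1 to 71.8 M counts) limits Zbtb16 most. The 9 genes, the lists and the named-gene rule were chosen with earlier results of these data known. The rule named all 9 genes, for each list the 2 most abundant genes and the 2 with the widest called change in WT FBS over SSt, and for each tested gene the 3 genes most like it. No pairing by replicate number was used in the main fits. Alternatives were DESeq2 1.42.0, limma 3.58.1 on log2(FPKM + 1), with pseudocounts of 0.1 and 5 as well, other scalings, filters and fits, a fold limit, a replicate block and each library left out in turn, which for the lists was added after seeing the data. Motifs were searched in RefSeq windows with Python 3.11.15, and figures were drawn with matplotlib 3.10.9. No sequence of the Nr3c1 protein was used here.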

Additional observations from a re-analysis of the deposited data

Results flagged for a closer look

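The response to treatment differed between WT and KO beyond an adjusted p of 0.05 (edgeR, interaction over 18 libraries) for 5 of the 8 tested genes with FBS and 7 with CMS. Of all genes, 17.2% were called above 0 and 18.5% below it with FBS, and 23.2% and 21.6% with CMS. The values are the WT log2 fold change minus that of KO. For FBS they were -1.67 (Hsd11b1), -1.36 (Dusp1), -0.58 (Sgk1), -0.51 (Nr3c1) and 0.51 (Fkbp5). For CMS they were -1.80 (Hsd11b1), -1.48 (Dusp1), -0.79 (Sgk1), -0.58 (Errfi1), -0.55 (Nr3c1), -0.51 (Klf9) and 0.46 (Fkbp5). Both sets share the SSt libraries. No test for outlying libraries was run in groups of 3. The FBS values without replicate 1 of KO FBS, which stood apart in its group, are given above.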

How the results depend on the processing

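Counts of the 8 tested genes past the threshold moved by at most 1.5 times in 118 of 133 alternatives that kept all libraries. Requiring a 2-fold change left 3 genes in WT FBS over SSt, 3 in WT CMS over SSt, 4 in each of the KO comparisons with SSt, 0 in both comparisons of CMS with FBS, 2 in each interaction, and 1, 0 and 0 between genotypes in SSt, FBS and CMS. All 18 libraries in one fit gave 1 gene for WT CMS over FBS and 2 for KO CMS over FBS, where a fit of only the groups compared gave 0. With 1 library left out the counts ran 6 to 7 (WT FBS over SSt, 7 with all), 6 to 7 (WT CMS over SSt, 6 with all), 1 to 3 (WT CMS over FBS, 3 with all), 6 to 7 (KO FBS over SSt, 7 with all), 7 to 8 (KO CMS over SSt, 7 with all), 0 to 3 (KO CMS over FBS, 1 with all), 5 to 6 (FBS interaction, 5 with all), 7 to 7 (CMS interaction, 7 with all), 6 to 8 (KO over WT in SSt, 7 with all), 3 to 6 (KO over WT in FBS, 5 with all), 3 to 6 (KO over WT in CMS, 6 with all). No pairing by replicate number was seen, with deviations correlated above 0.1 in 0 of 9 pairs in WT and 1 of 9 in KO. The lowest correlation was -0.239, in KO. Deviations were taken from means of 3 libraries, so this check cannot exclude a pairing. A replicate block gave 3 genes in place of 5 between genotypes in FBS, and over all genes 1227 in place of 1910 calls for KO CMS over FBS. Library totals alone shifted the median of all genes by -0.11 in KO CMS over SSt, 0.11 in the FBS interaction and 0.14 in the CMS interaction. Of 976 fold changes under alternatives with all libraries, 911 kept direction and call, 36 lost the call, 4 gained it and 25 changed sign, and with 1 library left out 1083 of 1152 kept both. None of the sign changes was past the threshold. For Klf9 in the WT FBS over SSt comparison the values were 0.0300 (upper-quartile scaling), 0.00741 (library totals alone), 0.00195 (limma, log2(FPKM + 1)), 0.00192 (limma, log2(FPKM + 0.1)), 0.00180 (limma, log2(FPKM + 5)), and -0.0915 to 0.0334 with 1 library left out. For Klf9 in the WT CMS over SSt comparison the values were -0.0123 to 0.0804 with 1 library left out. For Sgk1 in the WT CMS over FBS comparison the values were -0.00258 (DESeq2), -0.00252 (RLE scaling), -0.00692 (library totals alone), -0.00509 (limma, log2(FPKM + 1)), -0.00518 (limma, log2(FPKM + 0.1)), -0.00471 (limma, log2(FPKM + 5)), and -0.0275 to 0.0254 with 1 library left out. For Klf9 in the WT CMS over FBS comparison the values were -0.00346 to 0.122 with 1 library left out. For Nr3c1 in the KO CMS over FBS comparison the values were -0.00974 (upper-quartile scaling), -0.0360 (library totals alone), -0.0148 (limma, log2(FPKM + 1)), -0.0148 (limma, log2(FPKM + 0.1)), -0.0144 (limma, log2(FPKM + 5)), and -0.0901 to 0.201 with 1 library left out. For Hsd11b1 in the KO CMS over FBS comparison the values were -0.0122 (upper-quartile scaling), -0.0378 (library totals alone), -0.0248 (limma, log2(FPKM + 1)), -0.0250 (limma, log2(FPKM + 0.1)), -0.0240 (limma, log2(FPKM + 5)), and -0.0800 to 0.207 with 1 library left out. For Fkbp5 in the KO CMS over FBS comparison the values were -0.133 to 0.0388 with 1 library left out. For Tsc22d3 in the FBS interaction the values were -0.0365 to 0.241 with 1 library left out. For Errfi1 in the FBS interaction the values were 0.0408 (upper-quartile scaling), 0.0731 (library totals alone), 0.0310 (limma, log2(FPKM + 1)), 0.0810 (limma, log2(FPKM + 0.1)), and -0.146 to 0.146 with 1 library left out. For Fkbp5 between genotypes in FBS the values were -0.0318 to 0.138 with 1 library left out. The cause of these changes was not tested, except that a larger pseudocount shrinks a fold change by construction. Counts near 0 limit Zbtb16, and 3 libraries a group limit the small fold changes of Nr3c1, Fkbp5 and Klf9.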
